A study of Homo sapiens with 18 samples.

Results

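The ERK pathway feedback and output genes are 10 genes whose transcripts report on signalling through the kinase ERK, and many of them encode inhibitors of it. They are the dual-specificity phosphatases DUSP4, DUSP5 and DUSP6, the Sprouty genes SPRY1, SPRY2 and SPRY4, the Sprouty-related gene SPRED1, the transcription factors ETV4 and ETV5, and PHLDA1. The members were chosen by symbol, as the 10 of 40916 listed genes that carry these names, and all 10 passed the filter on low counts in every comparison. Their levels were read from poly(A)-selected mRNA sequencing of 18 libraries of cultured human cells in 6 groups of 3 biological replicates. MCF10A is an immortalised line of non-tumorigenic mammary epithelium, here expressing the nuclear marker H2B-GFP, and HCT116 is a colon carcinoma line, here a p53-null form without label. Each line was grown alone and in a mixed culture seeded 50-50, and every culture came without irradiation (NIR) and with a dose of 10 Gy (IR). RNA was taken at day 2 by the titles of the samples, but at 72 h after the dose by the series' own text. MCF10A cells were kept in F12:DMEM with horse serum, EGF, hydrocortisone, cholera toxin and insulin, and HCT116 cells in McCoy's 5A medium with fetal bovine serum. EGF is a ligand of a receptor upstream of ERK, and line and medium cannot be told apart in any comparison between the lines. Which medium the mixed cultures received is not given in the sources used here.

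Growth factor receptors act through RAS, RAF and MEK to activate ERK, which enters the nucleus and switches on a set of early genes. Many of those genes encode inhibitors of the pathway: dual-specificity phosphatases take the phosphates off ERK, and Sprouty and SPRED proteins act further up, near RAS and RAF. ETV4 and ETV5 are ETS-family factors whose transcripts follow ERK activity in many epithelial cells. The transcript level of such a gene is a readout of its mRNA only. ERK phosphorylation was not analysed here.

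The libraries held 25737818 to 40839835 counts each. Marker genes followed the labels: 9 of 10 basal mammary markers were lower in NIR HCT116 than in NIR MCF10A, with CDH3 the exception. Of 8 intestinal markers, 5 passed the filter on low counts and all 5 were higher. In NIR HCT116, EPCAM had 315 CPM and CDX2 10.0 CPM, but KRT20, CDH17 and GPA33 only 1.13, 0.612 and 0.530 CPM. VIL1 and LGALS4 were near 0 there, at 0.177 and 0.0676 CPM. CDX1, an intestinal marker, was at 0 in the HCT116 monocultures. The 6 fibroblast markers summed to 121 to 133 CPM (counts scaled to 1e+06 per library) in NIR MCF10A and to 247 to 262 CPM in IR MCF10A, against 28.7 to 46.8 CPM over the HCT116 libraries. The sum was carried by DCN (119 CPM in NIR and 240 CPM in IR MCF10A, 0 in the HCT116 monocultures). COL1A1 went the other way, at 6.52 CPM in NIR MCF10A and 42.2 CPM in NIR HCT116. Their part in the results was not tested. The share of MCF10A RNA in the mixed libraries was 0.447% ± 0.0528 (SD, n = 3) without irradiation and 1.24% ± 0.0662 with it, from 144 and 143 MCF10A-specific genes and 153 and 139 HCT116-specific genes. The mixed libraries therefore held almost only HCT116 RNA, and fewer cells of a line cannot be told apart from less RNA per cell.

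Promoter windows from RefSeq (GRCh38.p14), 250 bases before to 50 bases after a start, matched 6 of the 10 genes by symbol, with 9 entries: DUSP6, SPRY1, SPRY2, SPRY4, SPRED1 and PHLDA1. DUSP4, DUSP5, ETV4 and ETV5 had no entry. The 7-letter ETS motifs CCGGAAG and CAGGAAG and the AP-1 motif TGANTCA were searched on both strands. An ETS motif was found in a single window each of SPRY1, SPRY2 and SPRED1, and none of the 3 motifs was found in those of DUSP6, SPRY4 or PHLDA1. The other windows of SPRY1 and SPRY2 held no match, so the SPRY2 stretch shown is from its only window with a match. The shares that follow are per window, not per gene. Over all 35116 windows of this length, 21.8% held an ETS motif of either spelling (10.3% and 12.7% each) and 7.71% the AP-1 motif. One stretch is shown for SPRY4, whose response to irradiation differed between the lines, and one for SPRY2, which fell in both. Both are on the minus strand, outside annotated exons, and lie within the gene as GENCODE v29 draws it. The SPRY4 stretch, chr5:142324418-142324497, covers the bases from 250 to 171 before the start, and the SPRY2 stretch, chr13:80339660-80339909, the 250 bases before one of its starts. The capitals mark the ETS match.
SPRY4: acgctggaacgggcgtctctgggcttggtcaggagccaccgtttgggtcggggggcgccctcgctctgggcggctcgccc
SPRY2: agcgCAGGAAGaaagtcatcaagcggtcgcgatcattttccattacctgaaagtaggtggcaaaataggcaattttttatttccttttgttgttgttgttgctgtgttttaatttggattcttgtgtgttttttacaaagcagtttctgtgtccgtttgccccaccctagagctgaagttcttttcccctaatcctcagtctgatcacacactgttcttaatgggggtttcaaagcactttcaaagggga
The match in the SPRY2 stretch starts 246 bases before the start, and these letters are a description, not a binding site.

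The 10 genes did not respond to irradiation alike in the 2 monocultures. In MCF10A, 5 of 10 rose and 4 fell at an adjusted p under 0.05 (edgeR's quasi-likelihood test with Benjamini-Hochberg adjustment over all genes), where 55.4% of all 15154 genes tested were called, 26.2% higher and 29.2% lower. In HCT116, 1 rose and 7 fell, against 52.5% called of 16857 genes, 25.3% higher and 27.2% lower. The members' median log2 change was 0.17 in MCF10A and -0.53 in HCT116, and that of all genes was 0.00 and 0.01. Of the 8 members called in both lines, 4 went in the same direction and 4 in opposite ones: DUSP5, DUSP6, SPRY4 and PHLDA1 rose in MCF10A and fell in HCT116. The difference between the responses was tested as an interaction over the 12 monoculture libraries. It was called for 6 of 10 members, 1 higher and 5 lower in HCT116, where 37.3% of 18179 genes were called (15.4% higher, 21.9% lower). The median of all genes in that test was -0.10.

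**Figure D1:**
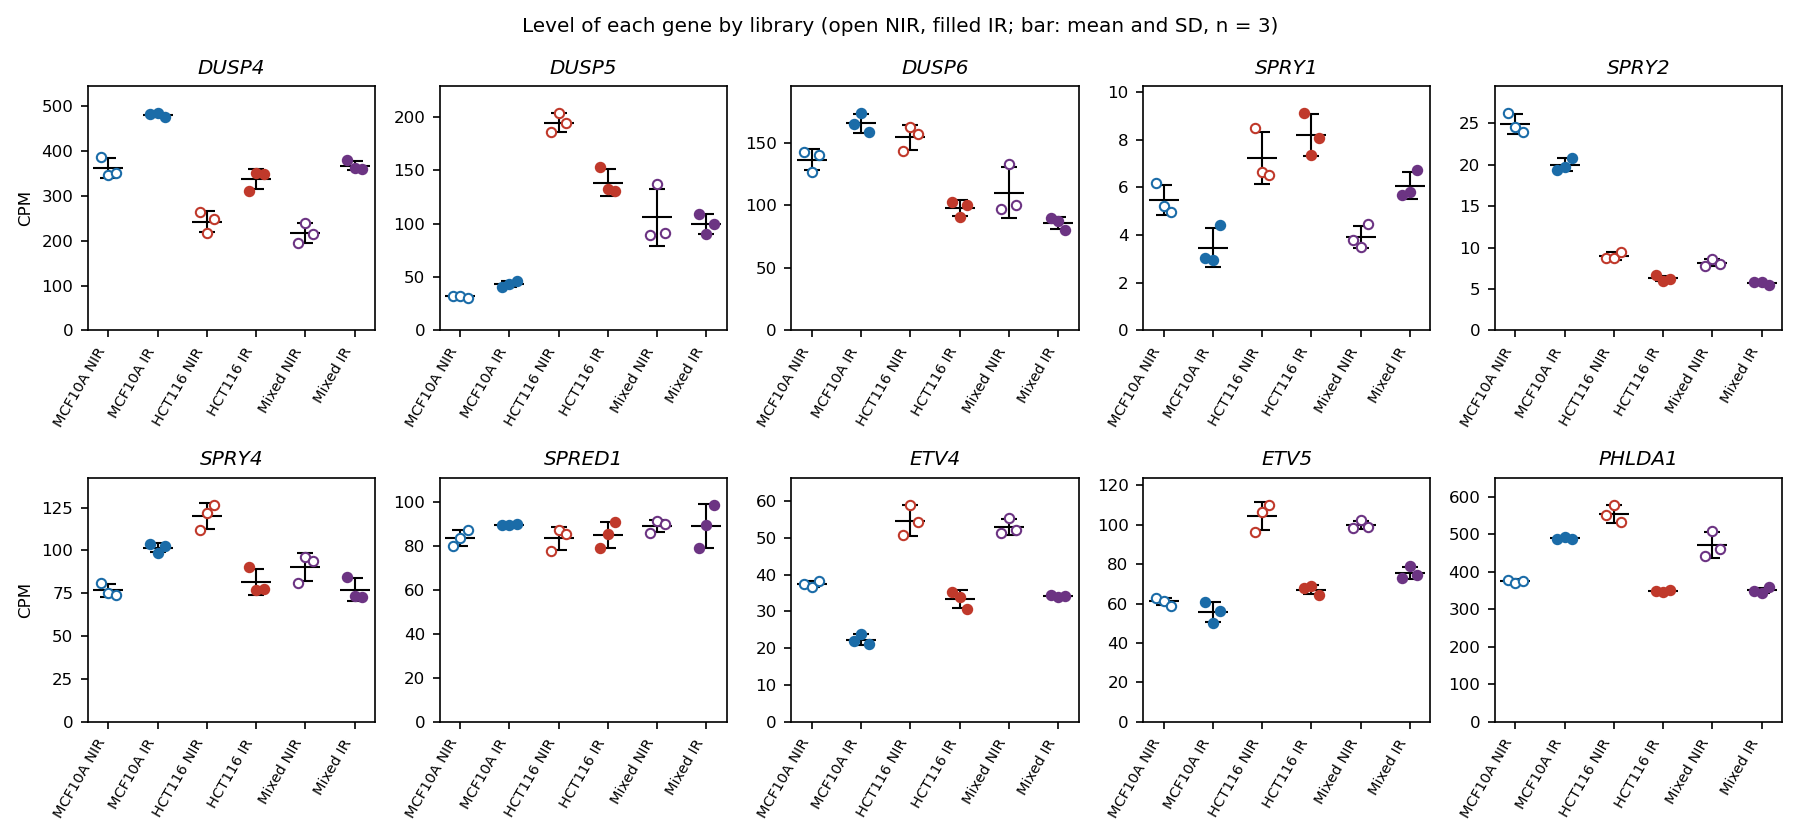
Level of each of the 10 genes in CPM (vertical axes, from 0) in the 18 libraries, by group. Open points are NIR and filled points IR libraries, and bars give the mean and SD of 3. DUSP5 sits at 30.4 to 46.5 CPM in every MCF10A library and at 130.2 to 203.2 CPM in every HCT116 monoculture library.

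DUSP6 (chromosome 12, 89347232 to 89353271, GRCh38), a cytoplasmic phosphatase with high preference for ERK, had 142.5, 126.9 and 140.0 CPM in the 3 NIR MCF10A libraries and 165.0, 173.7 and 158.3 CPM in the IR ones. The HCT116 libraries had 143.4, 162.4 and 157.4 CPM without irradiation and 102.5, 90.4 and 99.9 CPM with it. The groups did not overlap in either line, and the 2 lines moved apart from a similar start. The log2 change was 0.26 in MCF10A (SE 0.0498, adjusted p = 6.51e-05) and -0.66 in HCT116 (SE 0.0662, adjusted p = 1.54e-08). The responses differed by -0.99 (SE 0.0876, adjusted p = 1.83e-09), a 1.99-fold difference.

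DUSP5 (chromosome 10, 110497838 to 110511544), a nuclear phosphatase specific for ERK, was a low transcript in MCF10A and a high one in HCT116. NIR MCF10A libraries had 32.5, 32.6 and 30.4 CPM, and IR libraries 40.9, 43.8 and 46.5 CPM. The HCT116 libraries had 185.9, 203.2 and 194.1 CPM without irradiation and 152.6, 131.9 and 130.2 CPM with it. IR lay above NIR throughout in MCF10A and below it throughout in HCT116. DUSP5 rose by 0.44 (log2, SE 0.0731, adjusted p = 9.93e-06) in MCF10A and fell by 0.48 (SE 0.0664, adjusted p = 1.7e-06) in HCT116, and the responses differed by -0.998 (adjusted p = 7.65e-09).

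DUSP4 (chromosome 8, 29333064 to 29350668), a nuclear phosphatase that also acts on other MAP kinases, was the only member that rose in both monocultures. It had 386.2, 347.2 and 351.5 CPM in NIR MCF10A and 481.1, 483.8 and 475.9 CPM in IR MCF10A. In HCT116 it had 262.8, 217.4 and 247.4 CPM without irradiation and 310.9, 351.0 and 348.5 CPM with it. All IR libraries of a line lay above all of its NIR libraries. The rise was 0.39 in MCF10A (SE 0.0417, adjusted p = 6.07e-09) and 0.48 in HCT116 (SE 0.0679, adjusted p = 2.54e-06). The difference of the responses was 0.02, with a 95% interval of -0.15 to 0.18 (adjusted p = 0.934). DUSP4 thus went up in HCT116 while DUSP5 and DUSP6 went down there.

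**Figure D2:**
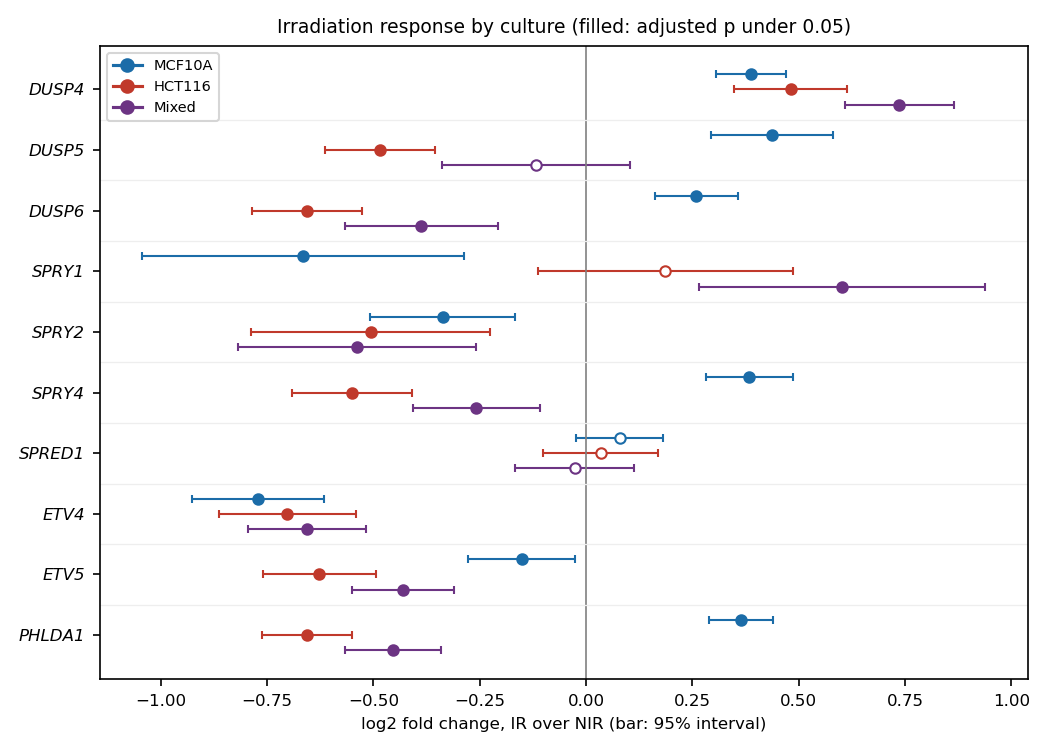
Log2 fold change of IR over NIR (horizontal axis) for each gene in MCF10A, HCT116 and mixed cultures, with 95% intervals; filled points have an adjusted p under 0.05. DUSP5, DUSP6, SPRY4 and PHLDA1 lie right of 0 in MCF10A and left of 0 in HCT116, while DUSP4 lies right and ETV4 left of 0 in all 3 cultures.

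SPRY4 (chromosome 5, 142310427 to 142326455), a Sprouty protein that restrains receptor signalling to ERK, followed the pattern of DUSP6. It had 81.2, 75.2 and 73.9 CPM in NIR and 103.9, 98.6 and 102.7 CPM in IR MCF10A. The HCT116 libraries had 111.8, 121.8 and 126.7 CPM without irradiation and 90.2, 76.9 and 77.6 CPM with it. The ranges were separate in both lines, in opposite order. The log2 change was 0.38 in MCF10A (SE 0.0524, adjusted p = 4.06e-07) and -0.55 in HCT116 (SE 0.0717, adjusted p = 8.1e-07), and the responses differed by -1.01 (adjusted p = 3.92e-09). The antisense symbol SPRY4-AS1 had means of 2.67 to 6.67 CPM over the 6 groups, and whether the counting used the strand is not given in the sources used here.

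SPRY2 (chromosome 13, 80335976 to 80340951), a widely expressed Sprouty gene, fell in both lines. Its 3 NIR MCF10A libraries had 26.2, 24.6 and 23.9 CPM and the IR ones 19.4, 19.7 and 20.9 CPM. HCT116 gave 8.71, 8.76 and 9.49 CPM, and 6.67, 6.02 and 6.18 CPM after irradiation. No IR library reached the lowest NIR library of its line. SPRY2 fell by 0.34 on the log2 scale in MCF10A (adjusted p = 0.00164) and by 0.51 in HCT116 (adjusted p = 0.00487). The difference of -0.25 between the responses did not pass the test (95% interval -0.54 to 0.05, adjusted p = 0.211).

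SPRY1 (chromosome 4, 123396795 to 123403760), another Sprouty inhibitor, was a low transcript with 81 to 301 counts in each library. In MCF10A it had 6.17, 5.21 and 4.99 CPM without irradiation and 3.05, 2.95 and 4.41 CPM with it, a fall of 0.67 on the log2 scale (SE 0.194, adjusted p = 0.00455). In HCT116 it had 8.48, 6.65 and 6.52 CPM without and 9.11, 7.37 and 8.08 CPM with irradiation, and these overlapped (log2 change 0.19, adjusted p = 0.323). The responses differed by 0.77 (SE 0.254, adjusted p = 0.018). That call was lost without NIR MCF10A replicate 1 (0.68, adjusted p = 0.0535) and without IR HCT116 replicate 1 (0.69, adjusted p = 0.0519).

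SPRED1 (chromosome 15, 38252326 to 38357249) brings the RAS inactivator neurofibromin to the membrane. Its level was 83.5 ± 3.47 CPM (SD, n = 3) in NIR and 89.6 ± 0.204 CPM in IR MCF10A, and 83.4 ± 5.23 and 85.0 ± 5.83 CPM in HCT116. Neither log2 change passed the test, at 0.08 in MCF10A (95% interval -0.02 to 0.18, adjusted p = 0.203) and 0.03 in HCT116 (-0.10 to 0.17, adjusted p = 0.701). With upper-quartile factors in place of TMM, the MCF10A change was 0.16 and passed (adjusted p = 0.00917).

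ETV4 (chromosome 17, 43527844 to 43579620), an ETS factor of the PEA3 group, fell in both lines by similar amounts. It had 37.4, 36.6 and 38.3 CPM in NIR and 21.9, 24.0 and 21.0 CPM in IR MCF10A. In HCT116 it had 50.7, 59.0 and 54.2 CPM without irradiation and 35.3, 34.0 and 30.7 CPM with it. No IR library overlapped the NIR libraries of its line. ETV4 fell by 0.77 (SE 0.0793, adjusted p = 2.63e-09) and by 0.70 (SE 0.0824, adjusted p = 1.69e-07) on the log2 scale. The difference of the responses was -0.01, with a 95% interval of -0.24 to 0.22 (adjusted p = 0.993).

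ETV5 (chromosome 3, 186046308 to 186110318), the closest relative of ETV4 among the members, fell mainly in HCT116. It had 62.9, 61.2 and 59.0 CPM in NIR and 60.7, 50.4 and 56.4 CPM in IR MCF10A, which overlapped. In HCT116 it went from 96.2, 106.3 and 110.1 CPM to 67.9, 68.9 and 64.3 CPM, with no overlap. The log2 change was -0.15 in MCF10A (SE 0.0643, adjusted p = 0.048) and -0.63 in HCT116 (SE 0.0682, adjusted p = 5.16e-08). The difference of -0.55 was called (SE 0.0968, adjusted p = 5.54e-05). The MCF10A call was lost without NIR replicate 1 or 2 or IR replicate 2 or 3 (adjusted p = 0.144, 0.103, 0.284 and 0.0794). It was also lost under DESeq2 (-0.14, adjusted p = 0.0971), with upper-quartile factors (-0.07, adjusted p = 0.404), library size alone (adjusted p = 0.0979), counts halved (adjusted p = 0.0675) and all 18 libraries in one fit (adjusted p = 0.0565).

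PHLDA1 (chromosome 12, 76025447 to 76033932), a protein with a pleckstrin-homology-like domain whose transcript is used as a readout of MEK and ERK activity, was abundant in both lines. It had 379.0, 369.0 and 375.8 CPM in NIR and 488.3, 491.7 and 488.3 CPM in IR MCF10A. HCT116 libraries had 550.2, 578.6 and 531.5 CPM without irradiation and 349.5, 346.7 and 351.9 CPM with it. The replicates lay close together and the treatments were far apart, in opposite order in the 2 lines. PHLDA1 rose by 0.36 in MCF10A (SE 0.0379, adjusted p = 3.28e-09) and fell by 0.66 in HCT116 (SE 0.0544, adjusted p = 6.06e-10). Its responses differed by -1.10 (SE 0.0615, adjusted p = 6.49e-13), the largest difference among the 10 genes.

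Other genes of the pathway were read from lists written from general knowledge. Of 8 other ERK-responsive genes, 5 rose and 1 fell in MCF10A, where 55.4% of all genes were called (26.2% higher, 29.2% lower). In HCT116, 3 rose and 3 fell, where 52.5% were called (25.3% higher, 27.2% lower). Their median log2 change was 0.51 in MCF10A and 0.00 in HCT116. The response differed between the lines for 7 of 8, with 2 higher and 5 lower in HCT116, where 37.3% of all genes were called. EGR1, an immediate-early zinc finger factor, had 57.2, 55.6 and 64.0 CPM in NIR and 73.2, 86.0 and 67.5 CPM in IR MCF10A. For HCT116 the values were 218.4, 195.7 and 210.4 CPM without irradiation and 74.2, 67.6 and 60.7 CPM with it. EGR1 rose by 0.34 in MCF10A (adjusted p = 0.000238), fell by 1.62 in HCT116 (adjusted p = 1.43e-14), and differed by -2.03 between them (adjusted p = 6.9e-13). IER3, another immediate-early gene, rose by 0.48 and fell by 0.79 on the log2 scale, a difference of -1.35 (adjusted p = 1.32e-08). VGF, a secreted neuropeptide precursor, fell by 1.64 in HCT116 (adjusted p = 1.08e-13) and differed by -2.30 (adjusted p = 1.51e-08), but its MCF10A level was only 1.52 and 2.30 CPM. CCND1, the gene of cyclin D1, rose in both lines, by 0.69 in MCF10A and by 1.91 in HCT116, a difference of 1.14 (adjusted p = 1.2e-12). MYC ran opposite to EGR1 and IER3. It fell by 0.26 in MCF10A (adjusted p = 2.94e-06) and rose by 0.65 in HCT116 (adjusted p = 7.24e-10). EPHA2 rose in both lines, by 0.54 in MCF10A and 0.41 in HCT116.

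**Figure D3:**
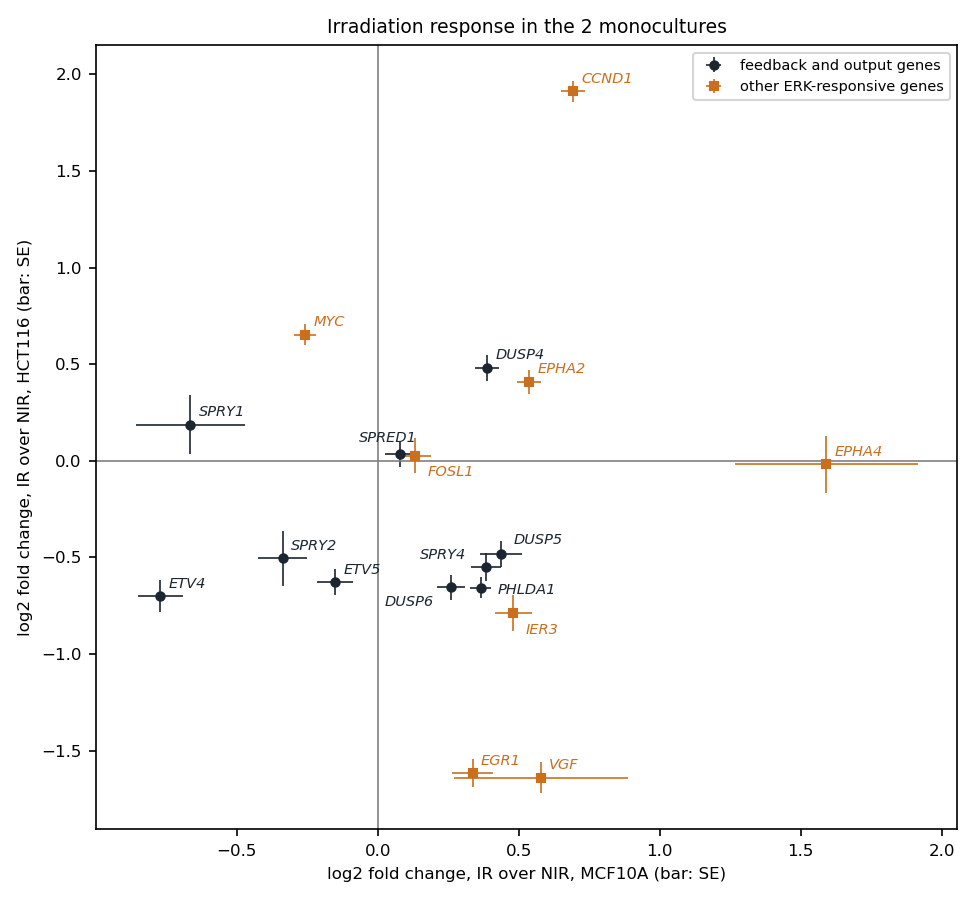
Log2 fold change of IR over NIR in MCF10A (horizontal axis) against that in HCT116 (vertical axis), with SE bars, for the 10 genes (dark circles) and 8 other ERK-responsive genes (orange squares). The lower right quadrant, higher in MCF10A and lower in HCT116, holds DUSP5, DUSP6, SPRY4 and PHLDA1 with EGR1, IER3 and VGF; EPHA4 lies there at -0.02 in HCT116.

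The core cascade and the other inhibitors held both rises and falls within each line, save the negative regulators in MCF10A. Of all genes, 55.4% were called in MCF10A (26.2% higher), 52.5% in HCT116 (25.3% higher) and 37.3% in the difference (15.4% higher). The counts below are a description beside those shares. Of 17 cascade genes, 9 rose and 3 fell in MCF10A, 2 rose and 6 fell in HCT116, and the responses of 9 differed, 2 higher and 7 lower in HCT116. SHC1, an adaptor between receptors and RAS, rose in both (0.64 and 1.01). MAPK3, the gene of ERK1, rose by 0.56 in MCF10A, and its responses differed by -1.15 (adjusted p = 1.32e-07). KSR1, a scaffold of the cascade, rose by 0.66 in HCT116 (adjusted p = 1.11e-06), with a difference of 0.89 (adjusted p = 0.0014). GAB1 fell by 0.63 in HCT116 (adjusted p = 5.95e-05) and rose by 0.24 in MCF10A (adjusted p = 0.0181). Of 9 tested negative regulators, 3 rose and 0 fell in MCF10A and 3 rose and 2 fell in HCT116. In the difference, 0 were called higher and 6 lower in HCT116, where 21.9% of all genes were lower. SPRED3, a relative of SPRED1, rose in both lines, by 1.36 in MCF10A (adjusted p = 3.95e-11) and by 0.63 in HCT116 (adjusted p = 0.00238), with a difference of -0.81 (adjusted p = 0.00143). RASA2, a GTPase-activating protein for RAS, fell by 0.62 in HCT116 (adjusted p = 4.17e-06) and was at -0.13 in MCF10A (adjusted p = 0.114). ERRFI1, an inhibitor of the EGF receptor, rose by 0.18 in MCF10A (adjusted p = 0.00714) and fell by 0.64 in HCT116 (adjusted p = 2.05e-09), with a difference of -0.90 (adjusted p = 3.65e-09). Of 7 other MAP kinase phosphatases, 3 rose and 1 fell in MCF10A and 2 rose and 1 fell in HCT116. DUSP10 rose by 0.97 in MCF10A (adjusted p = 1.31e-05), to 11.2 CPM, and DUSP1 by 0.53 (adjusted p = 4.35e-10). In HCT116, DUSP9 fell by 1.08 (adjusted p = 4.61e-06), from 10.2 to 4.81 CPM, while DUSP7 rose by 0.52 (adjusted p = 6.22e-05). Of 7 relatives of the ETS and PHLDA genes, 2 rose and 3 fell in MCF10A and 3 rose and 3 fell in HCT116. ETV1, the remaining PEA3-group factor, fell in both as ETV4 did (-0.77 and -0.73). PHLDA3, a relative of PHLDA1, rose in both (0.61 and 1.37), unlike PHLDA1.

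The lines already differed in these genes without irradiation. In NIR cultures, 5 of 10 members were higher and 3 lower in HCT116 than in MCF10A, where 74.8% of 16568 genes were called (38.7% higher, 36.1% lower). DUSP5 was 5.32-fold higher in HCT116 (log2 2.41, SE 0.0618, adjusted p = 2.86e-16), the largest difference among the members. SPRY2 was 3.18-fold lower (log2 -1.67, SE 0.106, adjusted p = 9.51e-11), and DUSP4 was 1.71-fold lower (log2 -0.77, SE 0.0654, adjusted p = 5.75e-09). ETV5, SPRY4, PHLDA1 and ETV4 were higher in HCT116, with log2 differences of 0.57, 0.45, 0.36 and 0.35 (adjusted p = 3.66e-07, 5.54e-06, 2.53e-06 and 0.000417). SPRED1 was lower by 0.20 with TMM factors (adjusted p = 0.00954), but the call was lost without HCT116 replicate 1 (-0.14, adjusted p = 0.0587), and with upper-quartile factors the value was 0.00 (adjusted p = 0.974). DUSP6 was at -0.02 with TMM (adjusted p = 0.787), at 0.18 with upper-quartile factors (adjusted p = 0.0133) and at 0.18 with library size alone (adjusted p = 0.0147). Those 2 scalings moved the median of all genes from 0.05 to 0.25, and the split of all calls from 51.8% higher to 62.4% and 62.2%.

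**Figure D4:**
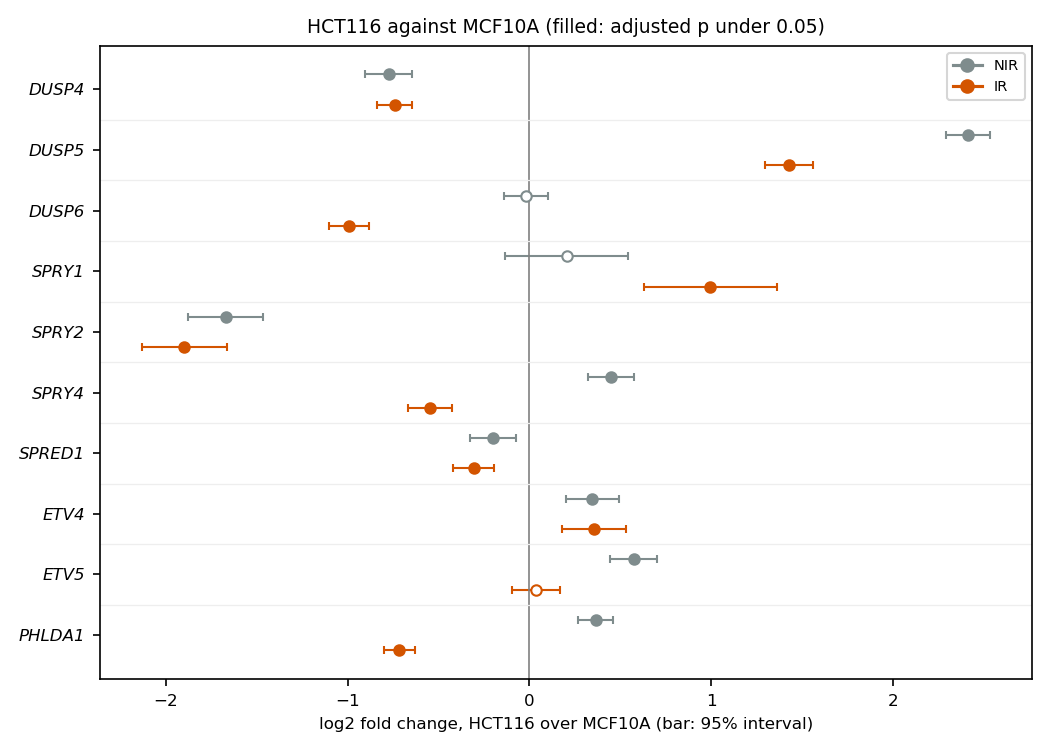
Log2 fold change of HCT116 over MCF10A (horizontal axis) for each gene, in NIR and in IR monocultures, with 95% intervals; filled points have an adjusted p under 0.05. SPRY4 and PHLDA1 change side between NIR and IR, at 0.45 and -0.55 and at 0.36 and -0.72.

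After irradiation, 3 of 10 members were higher and 6 lower in HCT116, where 74.9% of 16932 genes were called (38.1% higher, 36.8% lower). PHLDA1, SPRY4 and DUSP6 were now below MCF10A, at -0.72 (adjusted p = 6.02e-14), -0.55 (adjusted p = 1.24e-08) and -0.99 (adjusted p = 1.45e-14) on the log2 scale. DUSP5 stayed higher in HCT116, by 1.43 in place of 2.41. SPRY1 was higher by 1.00 (adjusted p = 3.33e-05), and ETV5 did not pass the test (0.04, adjusted p = 0.627; 0.27 and adjusted p = 0.0012 with library size alone). SPRED1 was lower by 0.31 (adjusted p = 3.27e-05), and by 0.08 with library size alone (adjusted p = 0.239). That scaling moved the median of all genes from 0.04 to 0.27 and the split of all calls from 50.9% to 62.4% higher.

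Per kilobase of exon (the union of GENCODE v29 exons, which need not be the annotation used for counting), the order of the members differed between the lines. In NIR MCF10A, DUSP4 (49.8 ± 2.95 CPM per kb; SD, n = 3) and PHLDA1 (46.4 ± 0.632) led, and DUSP6 followed at 29.5 ± 1.81. DUSP5 (12.2 ± 0.477) and SPRY4 (11.7 ± 0.593) did not differ beyond their spread, and neither did ETV5 (10.5 ± 0.338), ETV4 (10.4 ± 0.236) and SPRED1 (10.1 ± 0.420). SPRY2 stood below at 8.20 ± 0.394 and SPRY1 last at 1.38 ± 0.159. In NIR HCT116, DUSP5 (74.3 ± 3.31) and PHLDA1 (68.6 ± 2.94) led. DUSP4 (33.4 ± 3.18) and DUSP6 (33.3 ± 2.13) did not differ beyond their spread, and neither did SPRY4 (18.3 ± 1.15) and ETV5 (18.0 ± 1.23). ETV4 (15.1 ± 1.14) and SPRED1 (10.1 ± 0.633) followed. SPRY2 (2.96 ± 0.143) and SPRY1 (1.82 ± 0.276) were the lowest.

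In the mixed cultures, 2 of 10 members rose and 6 fell on irradiation, where 49.4% of 16906 genes were called (24.0% higher, 25.4% lower). DUSP4 rose most, from 194.9, 239.1 and 214.3 CPM to 379.3, 361.3 and 360.3 CPM (log2 0.74, adjusted p = 6.72e-09). SPRY1 rose from 3.79, 3.52 and 4.45 CPM to 5.70, 5.80 and 6.71 CPM (0.60, adjusted p = 0.00613). Neither gene's groups overlapped. ETV4 fell by 0.66 (adjusted p = 1.2e-07), SPRY2 by 0.54 (adjusted p = 0.00344), PHLDA1 by 0.45 (adjusted p = 1.2e-06), ETV5 by 0.43 (adjusted p = 5.36e-06), DUSP6 by 0.39 (adjusted p = 0.00134) and SPRY4 by 0.26 (adjusted p = 0.00798) on the log2 scale. DUSP5 had 89.7, 136.6 and 91.1 CPM without irradiation and 108.7, 90.1 and 99.5 CPM with it, which overlapped. Its log2 change was -0.12 (adjusted p = 0.41), and 0.11 without NIR replicate 2 (adjusted p = 0.265). That NIR library was the highest of its 3 for 9 of the 10 members, all but SPRY1. The share over all genes was not counted. Among the other ERK-responsive genes, EGR1 (157.1 against 97.1 and 115.2 CPM), VGF and EPHA2 were highest there too. FOSL1, IER3, CCND1, MYC and EPHA4 were highest in other NIR mixed libraries. Without NIR replicate 2, the fall of DUSP6 was 0.22 (adjusted p = 0.0152).

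Set against HCT116 monocultures, NIR mixed cultures had 0 of 10 members higher and 4 lower, where 2.04% of 16455 genes were called, 0.887% higher and 1.15% lower. At an unadjusted p under 0.05, 5 members passed and 0 were higher, where 14.4% of all genes passed and 7.13% were higher. DESeq2 called 5 members, all lower, where it called 3.49% of all genes, 1.80% lower. DUSP5 was at 105.8 ± 26.7 CPM in mixed and 194.4 ± 8.66 CPM in HCT116 cultures (log2 -0.86, SE 0.114, adjusted p = 0.000199). SPRY1 was at 3.92 ± 0.477 against 7.21 ± 1.10 CPM (-0.86, adjusted p = 0.0114), DUSP6 at 110.3 ± 20.2 against 154.4 ± 9.85 CPM (-0.47, adjusted p = 0.0113) and SPRY4 at 90.4 ± 8.05 against 120.1 ± 7.58 CPM (-0.39, adjusted p = 0.00699). All 3 NIR mixed libraries lay below all 3 HCT116 libraries for each of these 4 genes. That separation comes from the libraries that gave the calls and adds no support to them. Its share over all genes was not counted. PHLDA1 was at -0.22 (adjusted p = 0.0913) and passed under DESeq2 (adjusted p = 0.0393). ETV4 (-0.03, 95% interval -0.19 to 0.12) and ETV5 (-0.05, -0.18 to 0.08) did not pass. Of the 4 calls, DUSP5 alone was kept without each library in turn. Without NIR mixed replicate 1 the others had adjusted p = 0.0666 (SPRY1), 0.119 (DUSP6) and 0.068 (SPRY4). DUSP6 was also lost without HCT116 replicate 2 (adjusted p = 0.0871) and SPRY1 without HCT116 replicate 1 (adjusted p = 0.0633).

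A mixture of the monoculture means with 0.447% MCF10A RNA would hold 193.7 CPM of DUSP5 and 154.3 CPM of DUSP6, above the measured 105.8 and 110.3 CPM. At 0.945%, the highest share from any alternative, it would hold 192.9 CPM of DUSP5 and 154.2 CPM of DUSP6.

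**Figure D5:**
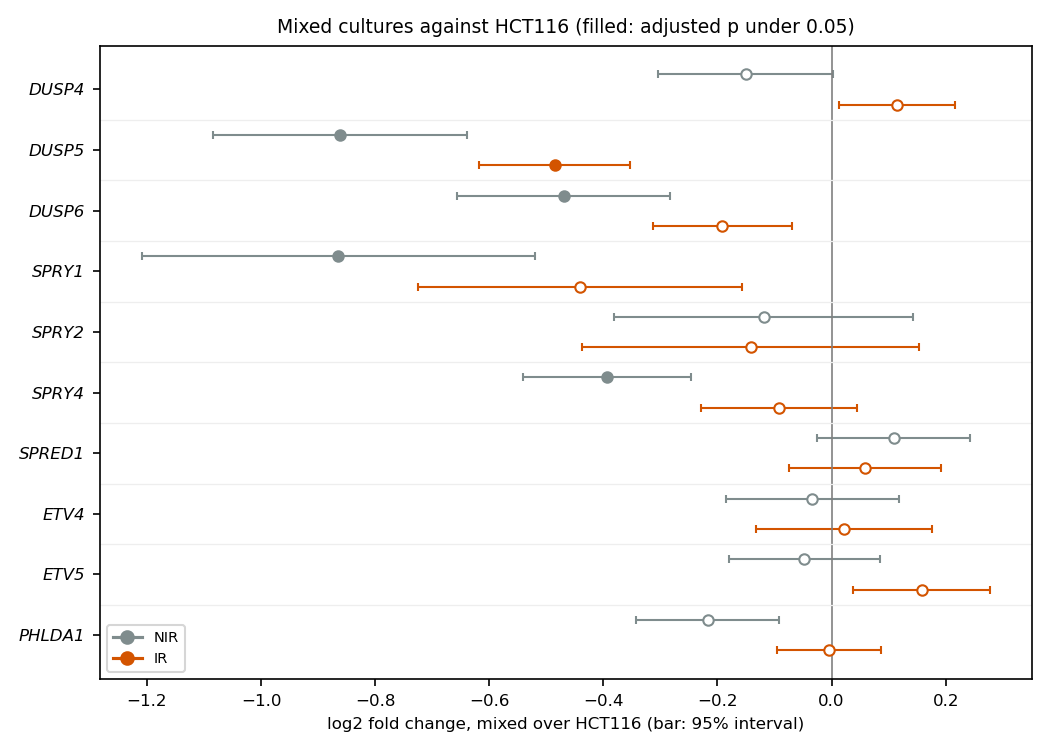
Log2 fold change of mixed over HCT116 cultures (horizontal axis) for each gene, NIR and IR, with 95% intervals; filled points have an adjusted p under 0.05. DUSP5 lies left of 0 in both, at -0.86 and -0.49, and DUSP6, SPRY1 and SPRY4 are filled in NIR only.

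After irradiation, 0 of 10 members were higher and 1 lower in mixed than in HCT116 cultures, where 8.56% of 17137 genes were called, 5.08% higher and 3.48% lower. At an unadjusted p under 0.05, 5 members passed, of which 2 were higher, where 20.7% of all genes passed and 11.3% were higher. DESeq2 called 2 members and 9.29% of all genes. DUSP5 was lower, at 99.4 ± 9.27 against 138.2 ± 12.5 CPM (log2 -0.49, SE 0.0677, adjusted p = 8.32e-06), with no overlap between the libraries. DUSP6 (-0.19, adjusted p = 0.0522) and SPRY1 (-0.44, adjusted p = 0.0557) narrowly missed the threshold. DUSP6 passed under DESeq2 (adjusted p = 0.0447) and without IR HCT116 replicate 2 (-0.24, adjusted p = 0.0281) or IR mixed replicate 1 (-0.23, adjusted p = 0.0324), and SPRY1 passed without IR HCT116 replicate 2 (-0.51, adjusted p = 0.0495). PHLDA1 was at 0.00 with a 95% interval of -0.10 to 0.09 (adjusted p = 0.973).

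The response to irradiation itself was not shown to differ between mixed and HCT116 cultures for any of the 10 members by edgeR's quasi-likelihood test, where 0.830% of 18072 genes were called (0.681% higher, 0.149% lower). DESeq2 also called 0 members, and 1.81% of all genes. At an unadjusted p under 0.05, 6 of 10 passed, all 6 higher in the mixed cultures, where 12.6% of all genes passed and 7.75% were higher. These were DUSP4, DUSP5, DUSP6, SPRY4, ETV5 and PHLDA1, with differences of 0.27, 0.38, 0.28, 0.30, 0.21 and 0.21 and adjusted p of 0.225 to 0.348. Without NIR mixed replicate 2, DUSP5 (0.59, adjusted p = 0.00465) and DUSP6 (0.42, adjusted p = 0.0375) passed. Among the other ERK-responsive genes the difference was called for EGR1 (0.98, adjusted p = 0.000961), VGF (0.93, adjusted p = 0.00148) and CCND1 (-0.36, adjusted p = 0.0069). The comparisons of mixed with HCT116 cultures and the HCT116 response share the HCT116 libraries.

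The genes most like DUSP6, SPRY4 and PHLDA1 over the 18 libraries were found by Pearson's r of log2(CPM + 1) among 14129 genes with a mean of at least 1 CPM. The libraries fall into groups by line and treatment, so r describes the group pattern. SREBF2 (r = 0.94), PLAG1 (0.92) and SLC25A1 (0.90) were most like DUSP6. PJA2 (0.94), UBXN6 (0.91) and GNB2 (0.91) were most like PHLDA1. ALDOA (0.92), NDRG1 (0.91) and PLAUR (0.90) were most like SPRY4, and ALDOA was listed at only 6.0 to 13.1 CPM by group mean. NDRG1 means were 253 (NIR) and 381 CPM (IR) for MCF10A, and 615 and 271 CPM for HCT116. Low transcripts named after the members were DUSP5-DT (at most 2.90 CPM by group mean), DUSP5P1 (at most 1.89), PHLDA1-DT (at most 1.12), ETV5-AS1 (at most 1.03), PHLDA1-AS1 (at most 0.0954) and DUSP5P2 (at most 0.0245).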

How the data were processed

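mRNA was isolated with TriZol, poly(A)-selected and sequenced in pairs from a stranded kit, per the labels' protocols. The submitters' processing notes name fastp, STAR, featureCounts and GRCh38. Versions, annotation, strand setting and mate counting are not given in the sources used here. The authors deposited raw counts per gene symbol, 1 table per library, with no normalization. Of 40916 genes, 10180 had no count, and 68.3% of values from 1 to 10 were even, so fits with counts divided by 2 were added to the alternatives. Replicates differed beyond counting error (chi-squared per gene 4.59 to 12.9 over 18 pairs). The labels call them biological and name no batch. 0 columns of other samples were present.

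CPM is a count times 1e+06 over the library total, with no TMM factor. The tests used edgeR 4.0.16 in R 4.3.3: TMM, filterByExpr, the quasi-likelihood test, 2-sided, Benjamini-Hochberg adjustment over all genes, called at 0.05, on the libraries of the groups compared, in 9 comparisons. SE is the log2 change over the square root of F. The 95% intervals take a normal quantile times SE, so they are somewhat narrower than the F test implies. The code was tested on simulated data. DESeq2 1.42.0, other scalings, filters, designs and each library left out were alternatives. An MCF10A-specific gene had at least 20 CPM there and under 1 CPM in every HCT116 library, and the reverse; the share is that of the median ratios to monocultures. Up to 4 genes of a pathway list were named, those with the largest called change in either line and at least 10 CPM in the higher group. Of the other ERK-responsive genes, MYC, EPHA2, EPHA4 and FOSL1 were named beyond these. The members and lists were chosen with earlier results of these data known.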

Additional observations from a re-analysis of the deposited data

Results flagged for a closer look

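The irradiation response of 6 of the 10 genes differed between HCT116 and MCF10A by the interaction test, which is what set them apart here. As HCT116 minus MCF10A on the log2 scale, the differences were -0.998 for DUSP5, -0.99 for DUSP6, -1.01 for SPRY4, -1.10 for PHLDA1, -0.55 for ETV5 and 0.77 for SPRY1. In the same test the median of all genes was -0.10 and 37.3% of them were called. With the mitochondrially encoded and the 10 most abundant genes left out, that median was -0.01 and the split of all calls moved from 41.3% to 52.5% higher. Other changes moved the split likewise, to 51.9% with no filter and 51.8% with all 18 libraries in one fit. Without any single IR MCF10A library it was 52.8% to 53.9%, and without IR HCT116 replicate 2 it was 53.2%. The interaction was scaled over its own libraries, so a difference need not equal that of the separately fitted changes. Line, p53 status and medium differ together and cannot be told apart.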

How the results depend on the processing

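Over all comparisons, 691 of the members' 720 values under other settings kept their side of the threshold with no called value reversed, 18 passed it newly, 8 no longer passed and 3 changed sign with a call on either side. With 1 library left out, 642 of 660 kept their side, 6 passed newly and 12 no longer passed. Values that passed in neither fit changed sign 12 times under other settings and 26 times with 1 library left out. The 3 with a call were all between NIR lines: DUSP6 at 0.18 with upper-quartile factors and 0.18 with library size alone, and SPRED1 at 0.00256 with upper-quartile factors. The rise in MCF10A and fall in HCT116 of DUSP5, DUSP6, SPRY4 and PHLDA1, and the differences between those responses, kept their calls under every setting run.

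In IR mixed against HCT116 cultures, 2 members were lower with DESeq2, with upper-quartile factors, with no filter and with counts halved, in place of 1. The replicate block gave 3 lower there (DUSP6 and SPRY1 beside DUSP5) and 2 higher (DUSP4 at 0.12 and ETV5 at 0.16), and in NIR it added PHLDA1 as lower (-0.22, adjusted p = 0.0167); it changed no other call of a member. The numbers were not taken to pair libraries: residuals of same-numbered libraries correlated at -0.162 to 0.209 over 45 pairs, and 4 of 18 libraries correlated best with their own number. For mixed minus HCT116 responses, 1 member was higher with no filter (DUSP5, 0.38, adjusted p = 0.00619).

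With each library left out in turn, the members lower ranged from 3 to 4 in the MCF10A response, 2 to 3 between NIR lines, 1 to 5 in NIR and 1 to 3 in IR mixed against HCT116 cultures. Members higher ranged from 0 to 1 in the difference between lines and 0 to 2 in mixed minus HCT116.

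The MCF10A share of mixed RNA was 0.345% with genes of at least 50 CPM, 0.301% with at most 0.2 CPM in the other line and 0.945% by the mean, without irradiation. With irradiation it was 1.07%, 0.955% and 2.06%. Without 1 library it ranged from 0.419% to 0.471% and from 1.22% to 1.28%.

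All-gene counts moved by over 1.5 times in NIR mixed against HCT116 (335 calls; 575 with DESeq2, 671 with no filter, 768 with all 18 libraries, 716 with the replicate block), in IR (1467; 2220 with the block) and in mixed minus HCT116 (150; 327 with DESeq2, 336 with no filter). Leaving out 1 library lowered them too: NIR to 145 (without mixed replicate 1) and 178 (without HCT116 replicate 2), IR to 866 and 914 (without mixed replicates 2 and 3), and mixed minus HCT116 to 64 to 93 (without HCT116 NIR replicate 1, any HCT116 IR or mixed IR library, or mixed NIR replicate 1). The split of calls moved with scaling in the MCF10A response (47.4% higher; 57.5% with upper-quartile factors), in mixed against HCT116 with all 18 libraries in one fit (43.6% to 63.8% in NIR, 59.4% to 80.5% in IR) and in mixed minus HCT116 with DESeq2 (82.0% to 61.5%). SPRY1 and SPRY2, the members with the lowest counts, had the widest intervals in each comparison.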
